A study of Homo sapiens with 12 samples.

Results

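Genes of the DUSP, SPRY, SPRED and ETV families that the ERK pathway induces were described in 2 hepatocellular carcinoma cell lines treated with DAAD-2. Apart from the ETV factors, their products act back on MAP kinase signalling, DUSP1 and DUSP10 mainly on p38 and JNK. The members are DUSP1, DUSP4, DUSP5, DUSP6, DUSP10, SPRY2, SPRY4, SPRED1, ETV4 and ETV5. They were chosen by symbol, and every probe set that the annotation of the array maps to 1 of these symbols was taken. This gave 24 probe sets of 10 genes, out of 54613 probe sets and 19775 genes. DAAD-2 is a dehydroabietylamine derivative carrying an N-acetyl amino acid. The groups were DAAD-2 HEP3B (2 μM), DMSO HEP3B, DAAD-2 SNU-449 (20 μM) and DMSO SNU-449, with 3 arrays each, all harvested after 72 h, and the vehicle controls had 0.1% DMSO. The sample labels call HEP3B sensitive and SNU-449 resistant to DAAD-2. Each kind of cell is 1 established line and had 1 dose, so that line and dose cannot be told apart in any difference of the responses. Nothing in the labels ties the 3 arrays of a group to separate cultures, so that p-values measure spread between arrays only, and this can be technical.

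ERK is the last kinase of a cascade that runs from growth factor receptors over RAS, RAF and MEK, and it drives proliferation in many liver tumours. Active ERK switches on genes whose products restrain the pathway: dual-specificity phosphatases (DUSP) take phosphate off the MAP kinases, and the Sprouty (SPRY) and SPRED proteins block the step between receptor and RAF. ETV4 and ETV5 are ETS transcription factors of the PEA3 group that are induced by the same signal, and the RNA levels of DUSP6, SPRY4, ETV4 and ETV5 are widely used to read ERK output. The phosphatases differ in their place and substrate, since DUSP6 acts on ERK in the cytoplasm and DUSP5 on ERK in the nucleus, while DUSP1 and DUSP10 act mainly on p38 and JNK and DUSP4 is a nuclear enzyme for several MAP kinases.

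All values are RMA levels on the log2 scale, as the authors deposited them, and the medians of the 12 arrays lay between 3.71 and 3.85. In HEP3B the medians of the DAAD-2 arrays (3.73, 3.71 and 3.74) all lay below those of the DMSO arrays (3.77, 3.79 and 3.79). A difference is given as a log2 difference with its standard error (SE), and a probe set was called at an adjusted p under 0.05 over all 54613 probe sets. In DMSO cells all 5 hepatocyte markers (ALB, AFP, APOA1, TF, TTR) were called higher in HEP3B than in SNU-449 (background 21.4% of genes) and all 5 mesenchymal markers (VIM, CDH2, ZEB1, SPARC, AXL) lower (background 19.4%). With DAAD-2 in HEP3B, where no probe set of the array was called, 3 of the 5 hepatocyte markers were lower at an unadjusted p under 0.05 (AFP -0.43, APOA1 -0.45 and TTR -0.32, background 5.47% of all probe sets). Of the 5 mesenchymal markers 2 were higher at such a p (VIM 0.53 and ZEB1 0.30, background 9.53%) and 1 lower (SPARC -0.45). In SNU-449 0 of these 10 genes were called or had such a p. The part of these shifts in the results on the members was not tested. Of 5 leukocyte markers 3 were measured, with 1 higher and 1 lower at an unadjusted p under 0.05 in HEP3B and 0 in SNU-449. The GAPDH control, read as its 3′ minus its 5′ level, stood at 1.99 on replicate 2 of DAAD-2 SNU-449 and between 0.34 and 0.97 on the remaining SNU-449 arrays, and at 1.51 on replicate 1 of DMSO HEP3B and between 0.45 and 1.05 on the remaining HEP3B arrays. The ACTB control, read in the same way, was highest at 3.04 on replicate 2 of DAAD-2 SNU-449 among the SNU-449 arrays. Among the HEP3B arrays it was highest at 3.27 on replicate 3 of DAAD-2 HEP3B, against 2.73 on replicate 1 of DMSO HEP3B. The GAPDH and ACTB controls thus pointed to different HEP3B arrays. Bulk RNA was measured, so that fewer cells with a transcript and less of it per cell cannot be told apart.

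Windows of 300 bases around the start site, 250 before and 50 after it, were taken from RefSeq (GRCh38.p14), where DUSP1, DUSP6, DUSP10, SPRY2, SPRY4 and SPRED1 were matched, 6 of the 10 members. Those of DUSP6, DUSP1 and SPRY2 are shown because the results below turn on these genes. They are read 5′ to 3′ on the strand of the gene, and capitals mark a match to 1 of 4 motifs searched on both strands. The motifs were the cAMP response element TGACGTCA, the AP-1 element TGANTCA, the ETS core with its flank CCGGAA and the CCAAT box CCAAT. None of them overlapped another in the windows shown. Shorter or looser forms, such as GGAA without the flank, were not searched for.
DUSP6 (chr12:89352452-89352751, minus strand): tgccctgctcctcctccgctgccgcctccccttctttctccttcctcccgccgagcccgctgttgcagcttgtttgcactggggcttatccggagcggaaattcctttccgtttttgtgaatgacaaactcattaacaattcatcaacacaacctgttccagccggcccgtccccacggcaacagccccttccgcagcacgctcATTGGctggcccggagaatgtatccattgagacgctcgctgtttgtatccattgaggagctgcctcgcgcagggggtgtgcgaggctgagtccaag
DUSP1 (chr5:172771146-172771445, minus strand): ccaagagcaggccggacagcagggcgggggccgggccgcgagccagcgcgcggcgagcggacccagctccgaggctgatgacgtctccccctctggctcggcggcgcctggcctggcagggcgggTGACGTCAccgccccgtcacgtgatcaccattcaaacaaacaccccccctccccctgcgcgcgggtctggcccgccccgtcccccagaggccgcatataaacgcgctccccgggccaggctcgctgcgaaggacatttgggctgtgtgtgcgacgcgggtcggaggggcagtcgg
SPRY2 (chr13:80341077-80341376, minus strand, the third of 3 start sites): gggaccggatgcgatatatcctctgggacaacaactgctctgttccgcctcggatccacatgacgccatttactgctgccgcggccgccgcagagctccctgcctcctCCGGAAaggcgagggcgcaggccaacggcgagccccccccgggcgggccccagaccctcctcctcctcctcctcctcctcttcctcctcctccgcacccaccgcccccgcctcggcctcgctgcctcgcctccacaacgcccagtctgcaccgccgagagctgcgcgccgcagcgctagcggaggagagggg
The DUSP6 window held a CCAAT box, read as ATTGG, that began 46 bases before the start site. It held none of the other motifs as spelled above, though GGAA without the flank does occur in it. A cAMP response element began 125 bases before the start of DUSP1, and an ETS core with flank 142 bases before the third start site of SPRY2. The windows at the other SPRY2 start sites held none of the 4 motifs. Start sites were numbered by rising coordinate, so that on the minus strand the third lies farthest upstream. Of 35116 windows of the same length over all promoters, 1.85% held TGACGTCA, 7.71% TGANTCA, 17.2% CCGGAA and 34.6% CCAAT. The share of G and C was 58.3% in the DUSP6 window, 73.3% in that of DUSP1 and 71% in that of SPRY2, against a median of 58.7% over all windows. These matches are descriptions of the sequence and were not tied to the array values.

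The members were compared first between the lines without the drug, since this sets the level on which DAAD-2 acted. DMSO HEP3B cells had far more DUSP6 and far less DUSP4, DUSP5, SPRY2 and SPRY4 than DMSO SNU-449 cells. Of the 24 probe sets 6 were called higher in DMSO HEP3B, where 14.5% of all probe sets were, and 7 lower, where 14.8% were. By gene, with the brightest probe set standing for it, 3 of 10 were higher (background 21.4% of 19775 genes) and 4 of 10 lower (background 19.4%). With dim probe sets left out, 13 of the 20 member probe sets that remained were called in either direction, where 53.2% of all were. Probe sets of the same gene are not independent counts, and the list was not tested, so that no excess of the members over the background is claimed.

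DUSP6 (208891_at) was at 10.00, 10.05 and 10.04 on the DMSO HEP3B arrays and at 7.42, 7.63 and 7.68 on the DMSO SNU-449 arrays. The groups lay far apart, with a log2 difference of 2.45 (SE 0.10, adjusted p = 2.52e-07), or 5.47-fold. The other DUSP6 probe sets gave 2.40 (208892_s_at) and 2.28 (208893_s_at). DUSP4 stood the other way round: 204015_s_at was at 4.81, 4.59 and 4.52 in DMSO HEP3B and at 8.21, 8.40 and 8.28 in DMSO SNU-449. The 3 DUSP4 probe sets were 12.6-, 36.3- and 43.2-fold lower in DMSO HEP3B (log2 differences -3.66, -5.18 and -5.43), and the means of 226034_at and 204014_at there, 3.50 and 3.00, lay below the array medians, so that the sizes of these 2 folds are less certain. DUSP5 was at 5.40, 5.43 and 5.37 in DMSO HEP3B and at 7.72, 8.00 and 8.02 in DMSO SNU-449, a difference of -2.51 (SE 0.11, adjusted p = 3.02e-07). Of the cytoplasmic ERK phosphatases beside DUSP6, which are not members, DUSP9 was higher in DMSO HEP3B (4.68, adjusted p = 1.1e-06) and DUSP7 lower (-2.42, adjusted p = 1.76e-06).

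SPRY2, an inhibitor of receptor signalling upstream of RAF, was at 6.90, 6.87 and 7.05 in DMSO HEP3B and at 8.69, 8.54 and 8.60 in DMSO SNU-449, a difference of -1.67 (SE 0.098, adjusted p = 2.1e-06). SPRY4, its relative, was at 5.70, 4.86 and 5.35 in DMSO HEP3B and at 6.47, 6.48 and 6.44 in DMSO SNU-449, a difference of -1.16 (SE 0.19, adjusted p = 0.00133). Both Sprouty genes were lower on every DMSO HEP3B array. SPRED1, which holds back RAF activation at the membrane, gave -0.53 on its brightest probe set 226837_at (adjusted p = 0.09), -0.70 on 235074_at (adjusted p = 0.00115) and -0.028 on the dim 244439_at.

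DUSP1 (201041_s_at) was at 10.68, 10.52 and 10.46 in DMSO HEP3B and at 10.01, 9.98 and 10.02 in DMSO SNU-449, a difference of 0.55 (SE 0.097, adjusted p = 0.00223) that the 2 dim DUSP1 probe sets did not show (-0.11 and 0.21, neither called). ETV4 (211603_s_at) was 0.45 higher in DMSO HEP3B (SE 0.14, adjusted p = 0.0385), a call that ended when any 1 of 4 arrays was left out (adjusted p = 0.0609 without DMSO SNU-449 replicate 2, 0.129 without DMSO SNU-449 replicate 3, 0.13 without DMSO HEP3B replicate 1 and 0.0772 without DMSO HEP3B replicate 2). It ended as well with quantile normalization (0.0566), with a trended robust variance (0.0529) and by the mean of the ETV4 probe sets (0.074). All 5 ETV5 probe sets were lower in DMSO HEP3B by 0.11 to 0.40, and none was called. DUSP10 was called on the dimmer probe set 215501_s_at only (0.56, adjusted p = 0.0186), and this too ended without any 1 of 4 arrays (adjusted p = 0.0515 to 0.0663 without DMSO SNU-449 replicate 1 or 2 or DMSO HEP3B replicate 1 or 2).

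**Figure D1:**
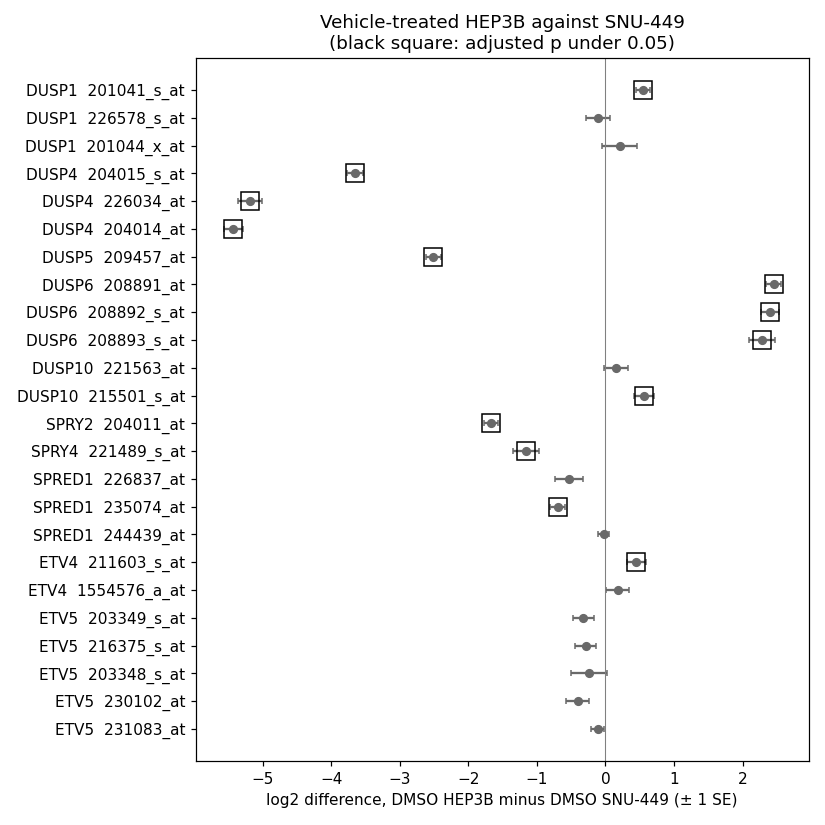
Log2 difference of DMSO HEP3B minus DMSO SNU-449 (x axis, log2 units) for each of the 24 probe sets (y axis), with points for the fitted difference, bars for 1 SE and squares around called probe sets. The 3 DUSP6 probe sets stand at 2.28 to 2.45 and the 3 DUSP4 probe sets at -5.43 to -3.66.

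The levels of the 10 genes in the 4 groups fell into different orders. DUSP6 had the order DMSO HEP3B, DAAD-2 HEP3B, DMSO SNU-449 and DAAD-2 SNU-449 from high to low, and the arrays of no neighbouring groups overlapped. SPRY2 ran DAAD-2 SNU-449, DMSO SNU-449, DMSO HEP3B and DAAD-2 HEP3B, again with no overlap between neighbours. For DUSP4, DUSP5 and SPRY4 both SNU-449 groups stood above both HEP3B groups, and the 2 HEP3B groups overlapped. For DUSP10, SPRED1 and ETV5 the arrays of all neighbouring groups overlapped, so that the order of their means lay within the spread of the arrays. ETV4 was highest in DMSO HEP3B, and its other 3 groups overlapped as neighbours. DUSP1 was lowest in DMSO SNU-449, while its other 3 groups overlapped as neighbours.

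**Figure D2:**
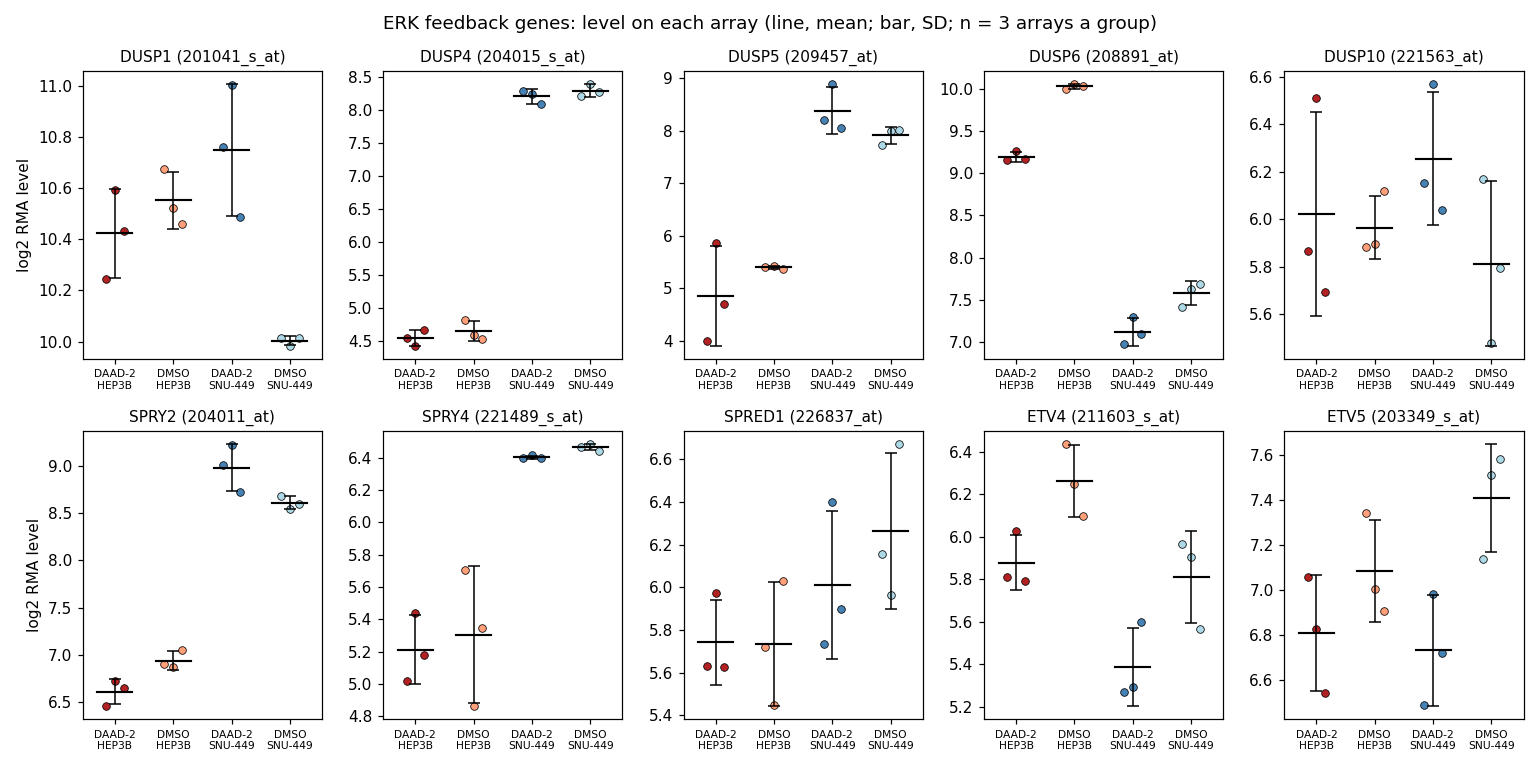
Log2 RMA level (y axis, scale set per panel) of the brightest probe set of each gene on each of the 12 arrays, by group (x axis), with lines for the mean and bars for the SD (n = 3 arrays). DUSP6 lies below its DMSO arrays in both DAAD-2 groups, and SPRY2 lies below them in HEP3B and above them in SNU-449.

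The next comparison asked how the members stood after DAAD-2 in the sensitive line. In HEP3B, DUSP6 had the lowest values relative to DMSO of all members on all 3 of its probe sets, but 0 of the 24 probe sets were called higher or lower by limma, as 0% of all 54613 were called in either direction. At an unadjusted p under 0.05, 7 of the 24 were lower, where 5.47% of all probe sets were, and 2 were higher, where 9.53% were. The 7 were the 3 of DUSP6 and 1 each of DUSP1, SPRY2, ETV4 and ETV5. On 7 of the 24 every DAAD-2 array lay below every DMSO array (background 9.99%) and on 3 every one lay above (background 11.0%). The median difference of the 10 genes was -0.20, against -0.0073 over all 19775 genes, and 8 of the 10 values were below 0.

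DUSP6 (208891_at) was at 9.16, 9.26 and 9.16 in DAAD-2 HEP3B and at 10.00, 10.05 and 10.04 in DMSO HEP3B. The groups did not overlap and each was tight, with means of 9.19 ± 0.059 and 10.03 ± 0.028 (SD, n = 3 each). The difference of -0.84 (SE 0.088, unadjusted p = 7.53e-06) is a level 1.79-fold lower, with an adjusted p of 0.0581. The probe set 208892_s_at was at 8.85, 8.90 and 8.75 in DAAD-2 HEP3B and at 9.59, 9.38 and 9.81 in DMSO HEP3B (-0.76, SE 0.12, adjusted p = 0.077). The last one, 208893_s_at, was at 7.93, 8.26 and 8.16 in DAAD-2 HEP3B and at 9.00, 8.63 and 9.00 in DMSO HEP3B (-0.76, SE 0.14, adjusted p = 0.0874). On all 3 the DAAD-2 arrays lay below the DMSO arrays. The adjusted p of 208891_at passed 0.05 with all 12 arrays in 1 fit (0.01), with arrays centred on their medians (0.0479), with quantile normalization (0.0318) and with a trended robust variance (0.00697), and did not when any 1 array was left out (0.0802 to 0.259).

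SPRY2 was at 6.46, 6.72 and 6.65 in DAAD-2 HEP3B and at 6.90, 6.87 and 7.05 in DMSO HEP3B, a difference of -0.33 (SE 0.11, adjusted p = 0.206) without overlap. ETV4 (211603_s_at) was at 5.81, 6.03 and 5.79 in DAAD-2 HEP3B and at 6.44, 6.25 and 6.10 in DMSO HEP3B, a difference of -0.39 (SE 0.12, adjusted p = 0.192), also without overlap. Its other probe set 1554576_a_at gave -0.27 with overlapping arrays. For ETV5 the brightest probe set 203349_s_at gave -0.28 (SE 0.16, adjusted p = 0.461) with overlapping arrays, and the dimmer 203348_s_at gave -0.60 (adjusted p = 0.18) without overlap. Without DMSO HEP3B replicate 1, the array with the highest GAPDH 3′ minus 5′ value of the line, though not the highest ACTB value, the differences were -0.35 for SPRY2, -0.30 for ETV4 211603_s_at, -0.43 for ETV5 203348_s_at and -0.85 for DUSP6 208891_at.

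DUSP5 was at 3.99, 5.87 and 4.70 in DAAD-2 HEP3B and at 5.40, 5.43 and 5.37 in DMSO HEP3B. Its DAAD-2 arrays lay far apart, on both sides of the DMSO arrays, which lay close together, and the difference of -0.55 had an SE of 0.38 (adjusted p = 0.546). Without DAAD-2 HEP3B replicate 2 it was -1.06, and over all single arrays left out it ran between -1.06 and -0.12. DUSP1 (201041_s_at) was at 10.24, 10.59 and 10.43 in DAAD-2 HEP3B and at 10.68, 10.52 and 10.46 in DMSO HEP3B, an overlap with a difference of -0.13 (SE 0.12). The dim 226578_s_at gave -0.42 (SE 0.17, adjusted p = 0.294) with every DAAD-2 array below every DMSO array. The dim 201044_x_at gave -0.13 with overlapping arrays. DUSP4 and SPRY4 gave -0.099 (SE 0.11) and -0.094 (SE 0.21) on their brightest probe sets.

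On the higher side stood DUSP10 215501_s_at (0.55, SE 0.15, adjusted p = 0.149) and SPRED1 235074_at (0.39, SE 0.13, adjusted p = 0.22), both with every DAAD-2 array above every DMSO array. In each case the brighter probe set of the gene gave a value near 0, at 0.058 for DUSP10 221563_at and 0.0092 for SPRED1 226837_at. The probe sets of these 2 genes therefore disagreed, while those of DUSP6 did not.

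The same comparison was made in the resistant line, at its own dose. In SNU-449, DUSP1 rose with DAAD-2 and was the only member called, while DUSP6, ETV4 and ETV5 had lower values that were not called. That is 1 of 24 called higher (background 1.04%) and 0 of 24 called lower (background 0.417%). At an unadjusted p under 0.05, 7 were lower (background 5.80%), namely 2 of DUSP6, 2 of ETV4 and 3 of ETV5, and 2 were higher (background 6.00%), namely DUSP1 and SPRY2. Every DAAD-2 array lay below every DMSO array on 5 of the 24 (background 7.76%) and above on 3 (background 8.34%). The median difference of the 10 genes was -0.073, against 0.0034 over all genes.

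DUSP1 (201041_s_at), a phosphatase that many kinds of stress and growth factors induce, was at 10.76, 11.00 and 10.49 in DAAD-2 SNU-449 and at 10.01, 9.98 and 10.02 in DMSO SNU-449. The DAAD-2 arrays all lay above the DMSO arrays, which lay close together. The difference was 0.74 (SE 0.14, adjusted p = 0.0427), or 1.68-fold. It passed the test without DAAD-2 replicate 3 (0.88, adjusted p = 0.0283) and lost it without any other single array: without DMSO SNU-449 replicate 1, 2 or 3 (adjusted p = 0.114, 0.173 and 0.178) and without DAAD-2 SNU-449 replicate 1 or 2 (adjusted p = 0.157 and 0.0552). Without replicate 2, the array with the high GAPDH 3′ signal, the difference was 0.62. The probe sets 226578_s_at (-0.030) and 201044_x_at (-0.091) did not show it, at mean levels of 4.80 and 3.39 in DAAD-2 SNU-449, and the mean over the 3 probe sets gave 0.21.

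DUSP6 was below DMSO in this line as well. The probe set 208891_at was at 6.97, 7.30 and 7.10 in DAAD-2 SNU-449 and at 7.42, 7.63 and 7.68 in DMSO SNU-449 (-0.46, SE 0.13, adjusted p = 0.16). The probe set 208892_s_at was at 6.19, 6.53 and 6.76 in DAAD-2 SNU-449 and at 7.31, 7.08 and 7.20 in DMSO SNU-449 (-0.70, SE 0.15, adjusted p = 0.0736). On both the groups did not overlap, whereas on 208893_s_at they did (-0.33, SE 0.20, adjusted p = 0.624). With all 12 arrays in 1 fit, 208891_at and 208892_s_at passed the test (adjusted p = 0.0346 and 0.0169).

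ETV5 (203349_s_at) was at 6.49, 6.98 and 6.72 in DAAD-2 SNU-449 and at 7.14, 7.51 and 7.58 in DMSO SNU-449, a difference of -0.68 (SE 0.17, adjusted p = 0.103) without overlap. Its other probe sets gave -0.71, -0.39, -0.13 and -0.020. ETV4 gave -0.42 on 211603_s_at (SE 0.15, adjusted p = 0.272, 1 DMSO array within the DAAD-2 range) and -0.65 on 1554576_a_at (SE 0.17, adjusted p = 0.132, no overlap).

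SPRY2 was at 9.01, 9.22 and 8.73 in DAAD-2 SNU-449 and at 8.69, 8.54 and 8.60 in DMSO SNU-449, so that all DAAD-2 arrays lay above all DMSO arrays, by little in replicate 3. The difference was 0.37 (SE 0.14, adjusted p = 0.32). DUSP5 was at 8.21, 8.89 and 8.06 in DAAD-2 SNU-449 and at 7.72, 8.00 and 8.02 in DMSO SNU-449 (0.47, SE 0.21, adjusted p = 0.43), with the highest value of both genes on DAAD-2 replicate 2. Without that array the differences were 0.26 for SPRY2 and 0.22 for DUSP5. SPRY4 was at 6.40, 6.41 and 6.40 in DAAD-2 SNU-449 and at 6.47, 6.48 and 6.44 in DMSO SNU-449, which is a difference of only -0.061 (SE 0.098) although the groups did not overlap. DUSP10 gave 0.44 and 0.30 on its 2 probe sets, and DUSP4 and SPRED1 between -0.25 and 0.11, with overlapping arrays throughout.

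**Figure D3:**
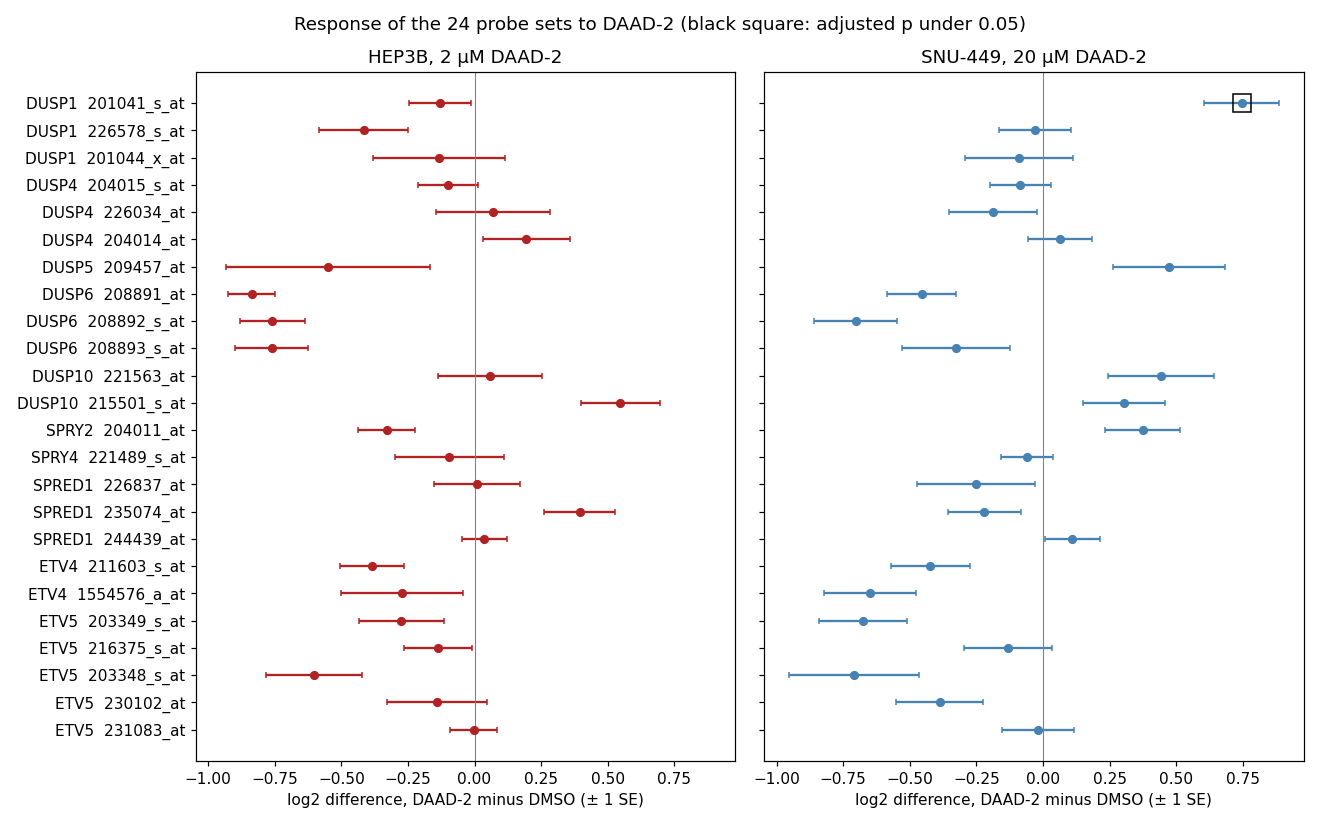
Log2 difference of DAAD-2 minus DMSO (x axis, log2 units) for each of the 24 probe sets (y axis) in HEP3B at 2 μM (left) and SNU-449 at 20 μM (right), with points for the fitted difference, bars for 1 SE and squares around called probe sets. The only square is DUSP1 201041_s_at in SNU-449 at 0.74, and the 3 DUSP6 probe sets lie below 0 in both lines.

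Whether the responses differed between the lines was tested as the interaction over all 12 arrays, HEP3B minus SNU-449, with different doses in the lines. DUSP1 was the 1 member called, on 201041_s_at, with the lower response in HEP3B (-0.87, SE 0.19, adjusted p = 0.0322). That is 1 of 24 called lower (background 0.797%) and 0 of 24 called higher (background 1.21%). The dim DUSP1 probe sets 226578_s_at (-0.39, adjusted p = 0.49) and 201044_x_at (-0.042, adjusted p = 0.973) were not called. By the mean of the DUSP1 probe sets the interaction was -0.43 and was not called (adjusted p = 0.234). The DUSP1 call was kept without DAAD-2 SNU-449 replicate 2 or 3, DMSO HEP3B replicate 3 or DAAD-2 HEP3B replicate 2, and was lost without each of the other 8 arrays (adjusted p = 0.0521 to 0.0901). SPRY2 had opposite signs in the lines on every array, and its interaction of -0.70 (SE 0.18) had an adjusted p of 0.0645. It passed with quantile normalization (adjusted p = 0.0208) and without DAAD-2 SNU-449 replicate 3 (0.0255). SPRY2 has 1 probe set, so that the mean of the probe sets left its value at -0.70. It passed there (0.0364) with the fit and adjustment made over genes in place of probe sets. The interactions of DUSP5 (-1.02, SE 0.49, adjusted p = 0.379), DUSP6 (-0.38, SE 0.15, adjusted p = 0.267) and ETV5 (0.40, SE 0.25, adjusted p = 0.513) did not pass, which does not show that these genes responded alike. DUSP4, SPRY4 and ETV4 gave interactions between -0.033 and 0.039 with SEs of 0.16 to 0.24, and their signs turned with the scaling of the arrays.

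Other genes of the pathway were set beside the members. None of 5 other MAP kinase phosphatases, 4 other Sprouty and SPRED genes and ETV1 was called with DAAD-2 in either line. Among 11 other ERK-induced genes 0 were called in HEP3B (median difference -0.038, against -0.0073 over all genes). In SNU-449 EGR1 and FOS, both immediate early transcription factors, rose while CCND1, the cyclin D1 gene, fell. That is 2 of 11 called higher (background 1.04% of all probe sets) and 1 of 11 called lower (background 0.417%). The median of the list in SNU-449 was 0.46, against 0.0034 over all genes. EGR1 gave -0.038 in HEP3B and 1.67 in SNU-449 (SE 0.18, adjusted p = 0.00586). FOS gave -0.51 in HEP3B and 1.88 in SNU-449 (SE 0.22, adjusted p = 0.00789). Its mean in DMSO SNU-449, 3.34, lay below the medians of those arrays, so that the sizes of this rise and of its interaction are less certain. CCND1 gave 0.85 in HEP3B (adjusted p = 0.127) and -1.26 in SNU-449 (adjusted p = 0.0252). All 3 were called in the interaction as well (-1.71 for EGR1, -2.40 for FOS and 2.11 for CCND1).

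Of 19 genes from receptor to ERK, 13 had a probe set with 1 symbol. HRAS, a RAS protein of the cascade, fell in SNU-449 (-0.87, adjusted p = 0.026) and differed between the lines (interaction 1.23, adjusted p = 0.00641), and the other 12 were not called with DAAD-2 in either line. In HEP3B the value farthest from 0 among the 13 was 0.61 for MAP2K1, the MEK1 kinase (adjusted p = 0.077). Of 10 JNK and p38 kinases and their activators, the substrates of DUSP1 and DUSP10 among them, 7 were measured and 0 were called with DAAD-2 in either line.

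**Figure D4:**
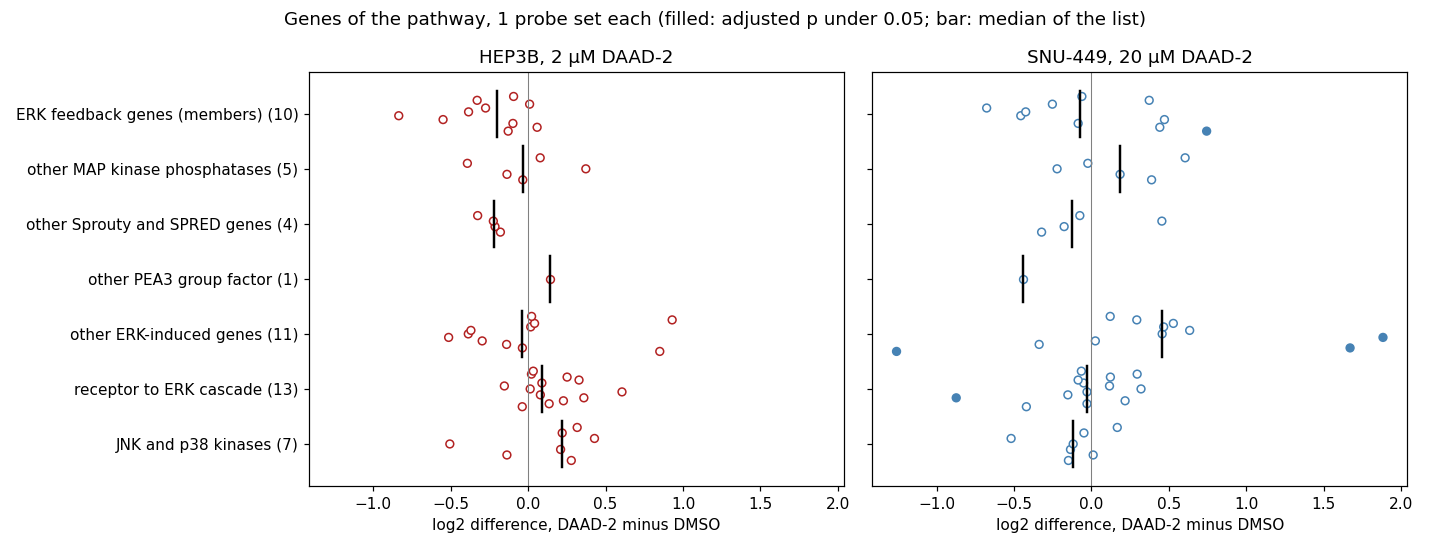
Log2 difference of DAAD-2 minus DMSO (x axis, log2 units) for the genes of 7 lists (y axis, number of genes in brackets), 1 probe set a gene, in HEP3B (left) and SNU-449 (right), with filled points for called genes and bars for the list median. Filled points appear in SNU-449 only, for DUSP1, EGR1, FOS, CCND1 and HRAS.

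For DUSP6, SPRY4 and ETV5, the genes with the most similar pattern were sought over the 12 arrays, after each gene's mean within a line had been taken off. Likeness was the root mean square difference, among genes whose spread was at least 0.75 times that of the member. For DUSP6 these were CD4 (0.14 log2 units), FXYD3 (0.16) and ACP3 (0.16) of 2868 genes. For SPRY4, which hardly varied with the drug, they were SLC16A5, CEP170B and GALNT14 at 0.089 to 0.11 of 12627 genes. For ETV5 they were EPHA7 (0.13), LINC00515 (0.15) and SFRP1 (0.16) of 3697 genes. The arrays share lines and treatments, so that any gene with a like difference in the same groups scores well here.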

How the data were processed

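Total RNA of the 12 samples had been hybridised to Affymetrix Human Genome U133 Plus 2.0 arrays, 1 per sample. The deposited values are on a log2 scale and came from RMA, per the labels, a method of background correction, normalization between arrays and summary of the probes. Its version is not given in the sources used. Groups came from the sample labels, 3 arrays each. Of 54675 probe sets 62 controls were left out, and 54613 were tested with no filter on dim ones, by a two-sided test in limma 3.58.1 (R 4.3.3) with Benjamini-Hochberg adjustment over all of them. HEP3B and SNU-449 were fitted separately, 3 against 3 arrays; the interaction used all 12 arrays and 4 group means, and the DMSO groups were compared on their 6 arrays. With 3 arrays on each side the smallest two-sided p of an exact permutation test is 0.1, so none was used.

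Symbols came from the platform annotation (41091 probe sets with 1 symbol, 1801 with several, 11721 with none). All probe sets of the members are reported, the one with the highest mean over the 12 arrays standing for its gene, and called genes of the lists are named. The members and lists were chosen with earlier results of these data known. Promoter windows came from RefSeq (GRCh38.p14). The code was tested on simulated data. The number of arrays limits the precision.

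Replicate numbers are shared by the groups. Deviations of same-numbered arrays from their group means correlated between -0.27 and 0.09 within the lines. Between the DMSO groups of the 2 lines these correlations were 0.056, 0.21 and 0.024. The comparisons were not paired. Alternatives tried were all arrays in 1 fit, a replicate block, leaving out dim probe sets, centring, quantile normalization, a trended robust variance, a fold over 1.5 with an unadjusted p under 0.05, the mean of the probe sets of a gene, and each array left out in turn. The authors' own comparison lists, with fold changes and p-values, were not used here.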

Additional observations from a re-analysis of the deposited data

Results flagged for a closer look

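DUSP1 (201041_s_at) was called for a difference of its response between the lines, with an interaction of -0.87 (HEP3B minus SNU-449, adjusted p = 0.0322 from limma). Its log2 difference was -0.13 in HEP3B, with overlapping arrays, and 0.74 in SNU-449, with 3 of 3 DAAD-2 arrays above all DMSO arrays. The interactions of the dim DUSP1 probe sets, -0.39 and -0.042, were not called, nor was that of the mean of the probe sets (-0.43, adjusted p = 0.234). The doses, 2 μM in HEP3B and 20 μM in SNU-449, cannot be told apart from the lines.

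SPRY2 (204011_at) had opposite signs in the lines, with 3 of 3 DAAD-2 arrays below all DMSO arrays in HEP3B (-0.33) and 3 of 3 above in SNU-449 (0.37). The interaction of -0.70 had an adjusted p of 0.0645 and did not pass the test.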

How the results depend on the processing

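Of 1143 single values under the alternatives, 1034 kept their direction and their side of the threshold, 25 passed the test anew, 34 lost it and 50 changed sign. With 3 arrays a group, a difference of the size seen for most members was near the spread of the arrays. The labels do not say that replicate numbers pair the arrays, and the correlations within the lines gave no ground to pair them. With the replicate block the count of member probe sets called stayed at 0 in HEP3B (0% of all). It moved to 0 in SNU-449 (0.48%, adjusted p of DUSP1 0.0922), 0 for the interaction (0.769%) and 14 between the DMSO groups (29.7%).

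In HEP3B, where 0 member probe sets were called, 1 was with all 12 arrays in 1 fit (0.282% of all probe sets), 1 after centring (0.141%), 1 after quantile normalization (0.011%), 3 with a trended robust variance (0.584%), 4 by a fold over 1.5 with an unadjusted p under 0.05 (1.62%) and 1 of 10 genes by the mean of the probe sets (0.561% of genes), all DUSP6 except 1 ETV5 probe set under the fold rule. Left-out arrays gave 0 to 0. In SNU-449 the count of 1 was 3 with all 12 arrays in 1 fit (3.39% of all), 0 after centring (1.18%, adjusted p of DUSP1 0.0604), 5 by the fold rule (3.29%), 0 by the mean of the probe sets (2.45% of genes) and 0 to 1 with an array left out (0.192% to 2.14%). For the interaction the count of 1 was 0 after centring (1.87% of all, adjusted p of DUSP1 0.0535), 2 after quantile normalization (1.94%), 3 by the fold rule (6.78%) and 0 to 2 with an array left out (0.797% to 4.25%). By the mean of the probe sets the interaction count was 1 of 10 genes (3.67% of genes), SPRY2 and not DUSP1. The value of SPRY2, which has 1 probe set, was unchanged there, and only the fit and adjustment over genes differed. Between the DMSO groups the 13 called were 6 of 10 genes by the mean of the probe sets (41.1% of genes) and 11 to 13 with an array left out (25.2% to 27.4% of all). The cause of these changes was not tested, apart from the call rule and the number of arrays themselves.

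Signs that changed in HEP3B were those of ETV5 231083_at (0.051 after centring or quantile normalization), DUSP10 221563_at (-0.067) and SPRED1 226837_at (-0.10) after quantile normalization, and DUSP4 by the mean of the probe sets (0.055). The interaction of DUSP4 was 0.031 after centring, 0.0043 after quantile normalization and 0.13 by the mean of the probe sets, that of SPRY4 0.011 after centring and that of ETV4 -0.063 after quantile normalization. Between the DMSO groups SPRED1 244439_at was at 0.0079 after centring.

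With an array left out, signs changed in HEP3B for DUSP1 201044_x_at (-0.32 to 0.18), DUSP4 226034_at (-0.15 to 0.23), DUSP10 221563_at (-0.19 to 0.22), SPRY4 221489_s_at (-0.31 to 0.11), SPRED1 226837_at (-0.13 to 0.16) and the ETV5 probe sets 216375_s_at (-0.21 to 0.0042), 230102_at (-0.30 to 0.035) and 231083_at (-0.040 to 0.030). They changed in SNU-449 for DUSP1 226578_s_at (-0.12 to 0.055), DUSP1 201044_x_at (-0.29 to 0.045), DUSP4 204014_at (-0.013 to 0.10), ETV5 216375_s_at (-0.30 to 0.023) and ETV5 231083_at (-0.11 to 0.11). For the interaction they changed for DUSP4 (-0.076 to 0.072), SPRY4 (-0.25 to 0.17) and ETV4 (-0.042 to 0.16). Between the DMSO groups they changed for DUSP1 226578_s_at (-0.30 to 0.052), DUSP1 201044_x_at (-0.10 to 0.40), DUSP10 221563_at (-0.016 to 0.33) and ETV4 1554576_a_at (-0.0057 to 0.34).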

Other observations

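The 10 genes, each by its brightest probe set, were also set against the DMSO mean of their line on each array. The median shift of the 10 genes was -0.30, -0.089 and -0.28 on replicates 1, 2 and 3 of DAAD-2 HEP3B, and 6, 5 and 7 of the genes were below the range of the DMSO arrays while 0, 2 and 0 were above it. On replicates 1, 2 and 3 of DAAD-2 SNU-449 the median shift was -0.033, 0.047 and -0.14, with 5, 4 and 5 genes below the DMSO range and 3, 4 and 3 above it. Of all 19775 genes, between 24.7% and 31.2% were below the DMSO range of their line on these 6 arrays and between 27.7% and 36.0% above it. The median shift over all genes lay between -0.021 and 0.022 on these 6 arrays. The difference between the lines in these medians was not tested.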
